A study of Mus musculus with 9 samples.

Results

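The data cover 10 genes of the YAP-TEAD branch of the Hippo pathway, found by gene name among the 55385 genes of the deposited table, in 9 RNA sequencing libraries of mouse podocytes. Yap1 and Wwtr1 (which encodes TAZ) are the coactivators, Tead1 is a DNA-binding partner, Lats1 and Lats2 are the kinases above them, Ajuba and Amotl2 are scaffold proteins, and Ccn1, Ccn2 and Ankrd1 are transcriptional targets. All 10 genes were found and all 10 passed the filter on low counts. Podocytes are the epithelial cells that wrap the glomerular capillaries of the kidney. All libraries came from 1 line that the labels call MCP5, with wild-type genotype. The labels place 3 libraries in AGEs (advanced glycation end products, 400 µg/mL), 3 in high glucose (50 mmol/L) and 3 in control, whose treatment is given as blank. The sources used here do not give the treatment time, the glucose in the control medium, an osmotic control or the carrier of the AGEs. They also do not say whether the 3 libraries of a group came from separate cultures, so each p-value is set against a spread that may be technical.

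In the Hippo pathway, a kinase cascade ending in Lats1 and Lats2 phosphorylates YAP and TAZ and holds them in the cytoplasm. When the kinases are off, YAP and TAZ enter the nucleus, bind TEAD factors and switch on genes such as Ccn1, Ccn2 and Ankrd1. The pathway responds to cell density, cell shape and tension on the actin cytoskeleton, and podocytes depend on that cytoskeleton for their foot processes. Phosphorylation and location of the proteins set much of this activity, and neither was measured here: the values below are transcript levels.

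The short sequence GGAATG is the core of the known TEAD motif. On the opposite strand it reads CATTCC. Its matches are shown because they mark where the members' promoters hold it. Promoter sequences from RefSeq (build GRCm38.p6) were available for 8 of the 10 members, and not for Ccn2 or Tead1, which were not searched. For the 8, the 250 bases before each start were searched on both strands. Of these 8 members, 6 held at least 1 match, against 14.4% of 27025 genes in the same table. A match is a description of the letters and not a binding site. Each line gives the 30 bases around a match, 5′ to 3′ on the gene's own strand, with the match in capitals.

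Ankrd1 first match: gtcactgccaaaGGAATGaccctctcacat
Ankrd1 second match: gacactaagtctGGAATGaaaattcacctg
Ccn1: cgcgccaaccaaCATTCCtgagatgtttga
Ajuba first match: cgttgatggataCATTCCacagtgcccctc
Ajuba second match: tgcccctccgcgCATTCCaactgtaaacaa
Amotl2: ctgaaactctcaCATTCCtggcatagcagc
Yap1: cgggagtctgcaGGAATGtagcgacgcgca
Wwtr1: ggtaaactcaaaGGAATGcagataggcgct

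The Ankrd1 stretches lie at chr19:36120037-36120066 and chr19:36119950-36119979 on the minus strand, and their matches end 205 and 118 bases before the RefSeq start. The Ccn1 stretch is at chr3:145650071-145650100 (minus strand) with a match ending 98 bases before the start. The Ajuba stretches are at chr14:54577830-54577859 and chr14:54577808-54577837 (minus strand), 181 and 159 bases before the start. The Amotl2 stretch is at chr9:102717727-102717756 (plus strand), 60 bases before the RefSeq start. By the deposited gene positions Amotl2 begins at 102716672, so this stretch lies inside the gene as annotated there. The window searched for Ankrd1 also runs into its gene, whose 5′ end there is at 36119910. Both Ankrd1 stretches lie outside that gene. The Yap1 stretch is at chr9:8004720-8004749 and the Wwtr1 stretch at chr3:57576029-57576058, both on the minus strand. Lats1 and Lats2 held no match in this window. The AP-1 motif TGANTCA, often found beside TEAD motifs in enhancers, was in 0 of 8 member promoters and in 7.82% of all genes' promoters. The CArG box bound by SRF was in 0 of 8 and in 1.62%. The whole 250 bases are shown for Ccn1 (chr3:145649986-145650235) and Ajuba (chr14:54577662-54577911), a target and a LATS inhibitor that were both lower in high glucose, as described below.

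Ccn1 promoter: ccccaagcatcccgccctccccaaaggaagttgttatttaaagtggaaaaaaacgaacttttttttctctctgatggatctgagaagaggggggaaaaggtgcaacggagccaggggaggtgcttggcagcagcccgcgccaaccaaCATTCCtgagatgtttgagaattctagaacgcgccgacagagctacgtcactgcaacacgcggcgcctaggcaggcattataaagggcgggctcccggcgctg
Ajuba promoter: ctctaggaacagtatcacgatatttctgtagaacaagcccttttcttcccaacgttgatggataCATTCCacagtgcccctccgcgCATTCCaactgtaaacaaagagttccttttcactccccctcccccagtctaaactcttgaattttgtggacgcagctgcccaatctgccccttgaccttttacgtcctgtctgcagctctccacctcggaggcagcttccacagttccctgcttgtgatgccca

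Total counts were 46284878 to 77242281 per library, and the member with the fewest reads, Tead1, had 491 to 10261. On the first principal component of log2 CPM (41% of the variance) the high glucose libraries lay at 85.8 to 90.2 and the other 6 at -48.9 to -40.4. AGEs library 3 stood apart on the second (11.9% of the variance) at 82.8, against -46.2 and -23.1 for AGEs libraries 1 and 2. The podocyte label was checked against 12 markers, of which 5 had a mean FPKM of at least 1 over all 9 libraries. Lmx1b had 0 counts in all 9 libraries, and Wt1 had a count of 11 in a single library, of high glucose, and 0 elsewhere. Summed FPKM of 7 parietal epithelial markers was 394 to 461 in AGEs, 819.7 to 894 in high glucose and 419 to 442 in control. Summed FPKM of 7 tubular markers was 22.9 to 27.8 in AGEs, 81.6 to 86.2 in high glucose and 23.5 to 24.2 in control, with Slc34a1, Aqp2 and Umod at 0 counts in every library. Endothelial markers summed to at most 0.165 FPKM in any library, and mesangial markers to 2.89 to 4.89, with Ren1 at 0 counts. Leukocyte markers summed to 6.32 to 17.3 in AGEs, 8.25 to 13.9 in high glucose and 14.9 to 16.4 in control. Most of this was Cd68, which averaged 10.9 FPKM in AGEs, 7.29 in high glucose and 14.8 in control. Of the 6 leukocyte markers, 2 (Cd68 and Lyz2) had a mean FPKM of at least 1 over all 9 libraries. The parietal and tubular sums were higher in high glucose than in the other groups, and 1 gene made up most of each difference. Cd24a averaged 402 FPKM in high glucose and 61.8 in control, and Cdh16 averaged 80.8 FPKM in high glucose and 22.5 in control. In high glucose against control 4 of the 7 parietal markers were called, all higher (Pax2, Krt8, Cd24a and Epcam), and Cldn1, Pax8 and Krt18 were not called. Of the tubular markers 3 were tested (Lrp2, Cubn and Cdh16) and all 3 were higher. The part of these markers in the high glucose results below was not tested. In a bulk sample fewer cells of a type and less RNA per cell cannot be told apart.

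High glucose was set against control to ask which of the pathway's transcripts differ under it. The targets Ccn1, Ccn2 and Ankrd1 were lower, as were Wwtr1, Lats2 and Ajuba, while the coactivator Yap1 was higher. Ankrd1 fell to 125 ± 32 CPM in high glucose, against 387 ± 27.5 CPM in control (mean ± SD, n = 3 each), a 3.1-fold difference. Ccn2 fell to 127 ± 46.1 CPM in high glucose, against 304 ± 23.8 CPM in control, a 2.39-fold difference. By edgeR's quasi-likelihood test with Benjamini-Hochberg adjustment over 17680 genes, 1 member was higher (Yap1), 6 were lower (Wwtr1, Lats2, Ccn1, Ccn2, Ankrd1 and Ajuba) and 3 were not called (Tead1, Lats1 and Amotl2). In the same comparison 39.3% of all genes tested were called, 19.6% higher and 19.7% lower. The high glucose and control libraries did not overlap for the 7 members called, and 54.1% of all genes tested showed no overlap. The members' median log2 fold change was -0.42, against 0.03 over all genes. Scaling by library size alone moved the all-gene median by 0.18 and split the calls 4808 higher to 2287 lower, against 3466 higher to 3480 lower with TMM factors.

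**Figure D1:**
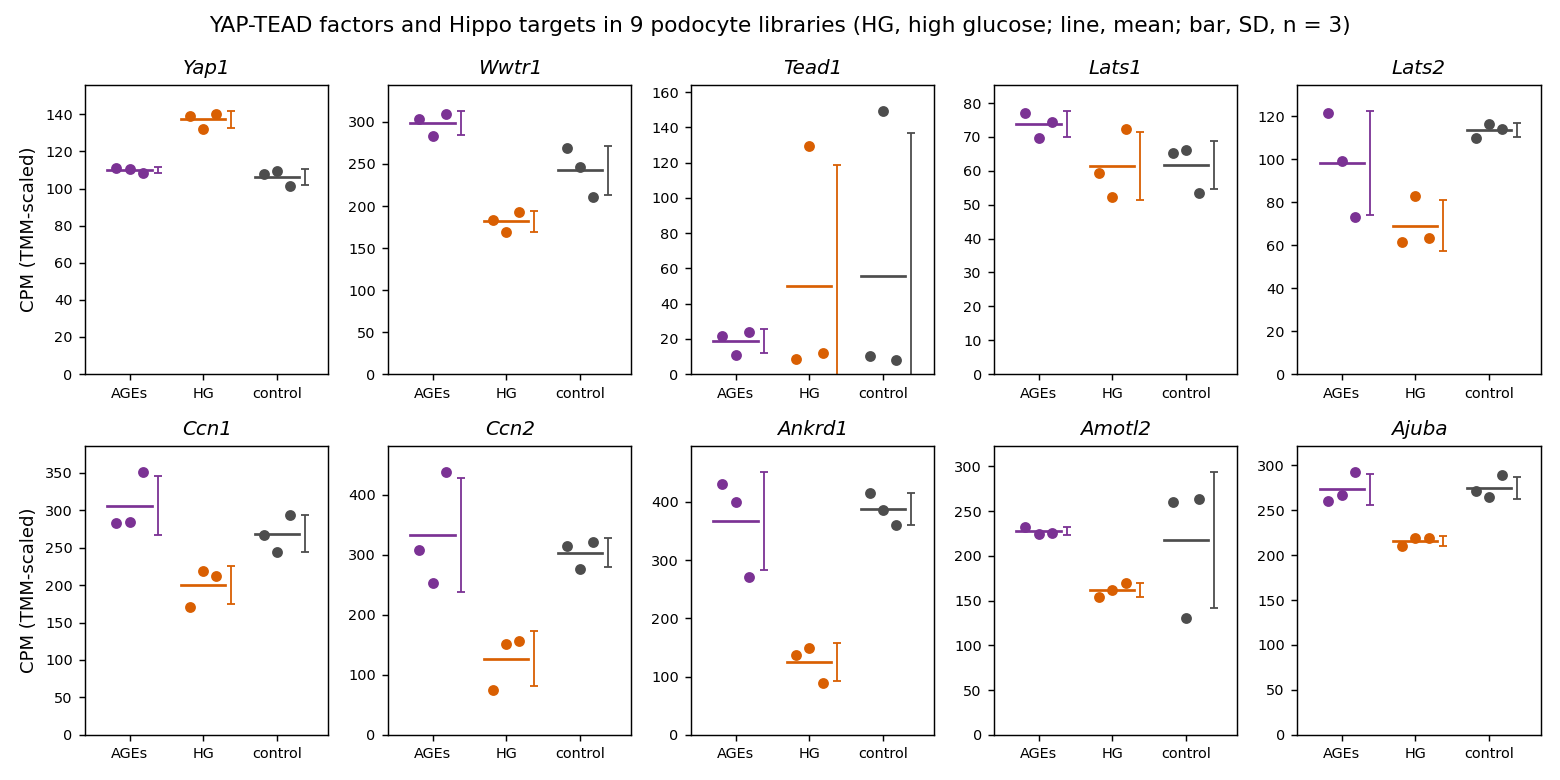
CPM (counts scaled to library size with TMM factors) of the 10 genes, one point per library, with a line at the group mean and a bar for the SD (n = 3; the lower ends of the Tead1 bars fall below 0 and are not drawn). The high glucose points lie above the other 6 for Yap1 and below them for Wwtr1, Ccn1, Ccn2, Ankrd1 and Ajuba, and for Tead1 a single library of high glucose (129) and of control (149) stands above the rest.

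Yap1 encodes the coactivator YAP. Its CPM was 111, 110.4 and 108 in AGEs libraries 1 to 3, 139, 132 and 140.3 in high glucose and 108, 109 and 101 in control. All 3 high glucose libraries lay above all 6 others. High glucose minus control was 0.37 on the log2 scale (SE 0.06, edgeR adjusted p = 0.00131), a 1.29-fold rise. The spread within groups was small, with the highest library at most 1.08 times the lowest in any group.

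Wwtr1 encodes TAZ, the paralogue of YAP, and moved the other way. Its CPM was 304, 283 and 309.5 in AGEs, 183, 169 and 193 in high glucose and 269.5, 247 and 211 in control. Here the high glucose libraries were the lowest 3 of 9 and the AGEs libraries the highest 3. The log2 difference between high glucose and control was -0.42 (SE 0.1, edgeR adjusted p = 0.00698). With library size alone as the scaling it was -0.24, with an adjusted p of 0.0756, and limma on FPKM gave 0.0734 and 0.0743.

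Because the coactivators moved in opposite directions, the mix of their transcripts differed. Per length, the Yap1 share of summed Yap1 and Wwtr1 FPKM was 15.9%, 16.8% and 15.3% in AGEs, 28.2%, 28.8% and 27.3% in high glucose and 17.1%, 18.6% and 19.8% in control. No 2 groups overlapped. The mean share was 28.1 ± 0.776% in high glucose and 18.5 ± 1.34% in control (SD, n = 3 each, exact two-sided permutation p = 0.1, the smallest that 3 against 3 allows).

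Tead1 encodes a TEAD factor, the DNA-binding partner of YAP and TAZ, and its level was set by single libraries. Its counts were 1422, 768 and 1637 in AGEs, 729, 6561 and 962 in high glucose and 638, 10261 and 491 in control. Library 2 of high glucose and library 2 of control stood apart, with CPM of 129 and 149 against 8.23 to 12.1 in the other 4 libraries of those groups. The highest library was 14.7 times the lowest in high glucose and 18.1 times in control, and 2.14 times in AGEs. High glucose minus control was -0.16 on the log2 scale with a 95% interval of -2.91 to 2.59 (edgeR adjusted p = 0.934), and it was 2.45 without control library 2 and -2.42 without high glucose library 2. So wide an interval leaves no direction for Tead1. Of 11927 genes with a mean FPKM of at least 1, 25 (0.21%) spread 10-fold or more in both groups, and 3 of these had library 2 highest in both by CPM.

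Among the other TEAD genes the high glucose libraries held more Tead2 and Tead3 and less Tead4. Tead2 FPKM was 15.6, 18.6 and 19.1 in AGEs, 28.7, 25.2 and 26.4 in high glucose and 15.5, 17.8 and 19.3 in control. Tead3 FPKM was 2.77, 2.45 and 2.45 in AGEs, 5.06, 5.98 and 5.52 in high glucose and 2.86, 3.0 and 3.71 in control. Tead4 FPKM was 7.41, 6.57 and 7.08 in AGEs, 3.83, 3.89 and 4.21 in high glucose and 5.76, 6.25 and 6.38 in control. For all 3 genes the high glucose libraries did not overlap the control libraries, as for 54.1% of all genes tested. The log2 differences between high glucose and control were 0.44 for Tead2 (edgeR adjusted p = 0.0123), 0.61 for Tead3 (0.00302) and -0.80 for Tead4 (0.000157). Tead2 lost its call when library 1 of high glucose (adjusted p = 0.0508) or library 1 of control (0.0528) was left out. Tead2 was the most abundant of the 4 by FPKM in every library. Tead4 made up 11 ± 0.733% of the summed Tead2 to Tead4 FPKM in high glucose and 22.9 ± 1.08% in control (n = 3 each, exact permutation p = 0.1). Vgll4, a repressor that competes with YAP for TEAD factors, differed by -0.04 and was not called. Vgll3 was low, at 0.109 to 0.27 FPKM, and Vgll1 and Vgll2 had 0 counts throughout.

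**Figure D2:**
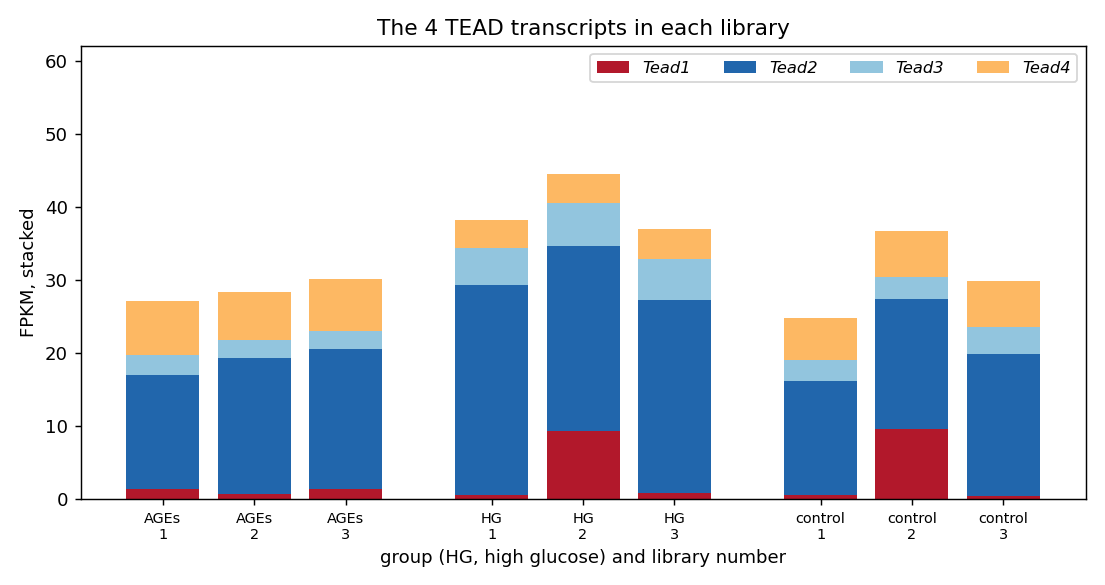
Stacked FPKM of Tead1 to Tead4 in each of the 9 libraries, in the order AGEs, high glucose (HG) and control. Tead2 forms the largest block in every bar, and the Tead1 block is tall only in library 2 of high glucose and library 2 of control, where it made up 21.1% and 26.2% of the sum.

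Of the kinases that phosphorylate YAP and TAZ, Lats2 was lower in high glucose and Lats1 was not called. Lats2 CPM was 122, 99.4 and 73.3 in AGEs, 61.3, 82.9 and 63.2 in high glucose and 109.9, 116.5 and 114 in control. The high glucose libraries lay below the control libraries, and AGEs library 3 lay within the high glucose range. High glucose minus control was -0.72 for Lats2 (SE 0.18, edgeR adjusted p = 0.01), a 1.64-fold fall. Lats1 CPM was 77.2, 69.7 and 74.5 in AGEs, 59.4, 52.4 and 72.4 in high glucose and 65.2, 66.2 and 53.5 in control. Its high glucose and control libraries overlapped, and the log2 difference was -0.01 with a 95% interval of -0.3 to 0.28. Lats2 made up 54.0 ± 7.53% of summed Lats FPKM in high glucose and 65.9 ± 2.76% in control (n = 3 each, exact permutation p = 0.1). Lats2 is itself a known target of YAP and TAZ, so it also belongs with the genes below them. An antisense gene, Gm20430, overlaps Lats2 and had 53 to 122 counts, against 4206 to 8016 for Lats2.

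Ajuba is a LIM-domain protein that binds and restrains the LATS kinases. Its CPM was 260.1, 267 and 292 in AGEs, 209.7, 219 and 219 in high glucose and 271.5, 264 and 289 in control. All 3 high glucose libraries were below all 6 others. The log2 difference between high glucose and control was -0.35 (SE 0.07, edgeR adjusted p = 0.0029), and with library size alone as the scaling it was -0.17 (adjusted p = 0.0631); limma on log2(FPKM + 0.1) gave 0.0505. Amotl2 encodes an angiomotin-like protein that binds YAP at cell junctions. Its CPM was 232, 225 and 226 in AGEs, 154, 161.5 and 169 in high glucose and 260.5, 131 and 263 in control. Control library 2 was the lowest of all 9, so that control overlapped both other groups. High glucose minus control was -0.43 for Amotl2 (95% interval -0.92 to 0.06, edgeR adjusted p = 0.151). Without control library 2 it was -0.69, with an adjusted p of 0.00023.

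The 3 classical targets were all lower in high glucose, and their libraries overlapped control in none of the 3. Of all genes tested, 54.1% showed no overlap in this comparison. Ankrd1, a nuclear ankyrin-repeat protein, had a CPM of 429.7, 399.6 and 271 in AGEs, 136, 149.7 and 88.8 in high glucose and 415, 385 and 360.2 in control. High glucose minus control was -1.63 for Ankrd1 (SE 0.21, edgeR adjusted p = 0.000295). Ccn2, a secreted matricellular protein also called connective tissue growth factor, had a CPM of 308, 253 and 438 in AGEs, 73.9, 152 and 156 in high glucose and 314, 276 and 320.3 in control. High glucose library 1 was the lowest of the 9, and the other 2 high glucose libraries also lay below every control library. The log2 difference for Ccn2 was -1.26 (SE 0.28, edgeR adjusted p = 0.00604). Ccn1, its close relative (CYR61), had a CPM of 283, 284.5 and 351 in AGEs, 171, 218 and 212 in high glucose and 267, 245 and 293.5 in control. Its fall was smaller, at -0.42 (SE 0.12, edgeR adjusted p = 0.0212). The call for Ccn1 was lost when high glucose library 1 (adjusted p = 0.0701), control library 1 (0.0524) or control library 3 (0.0712) was left out, with library size alone as the scaling (0.144) and with both limma fits (0.137 and 0.135), 6 of 18 alternatives in all. Gm15270, a gene on the strand opposite Ccn2, had 11 to 91 counts against 6128 to 30043 for Ccn2.

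Both CCN targets also differed from each other in size of change. Ccn2 divided by Ccn1, in FPKM, was 0.768, 0.628 and 0.88 in AGEs, 0.305, 0.49 and 0.52 in high glucose and 0.829, 0.797 and 0.77 in control. The high glucose ratios were the lowest 3 of 9. Their mean was 0.438 ± 0.116 in high glucose and 0.799 ± 0.0297 in control (n = 3 each, exact permutation p = 0.1). Ccn4 (WISP1), another member of the family, was also lower, with a CPM of 26.4 ± 5.29 in high glucose and 53.8 ± 3.93 in control and a log2 difference of -1.03 (edgeR adjusted p = 0.00047). Ccn5 was at 2.02 and 2.33 CPM in high glucose and control and was not called, and Ccn3 and Ccn6 had too few reads to be tested.

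**Figure D3:**
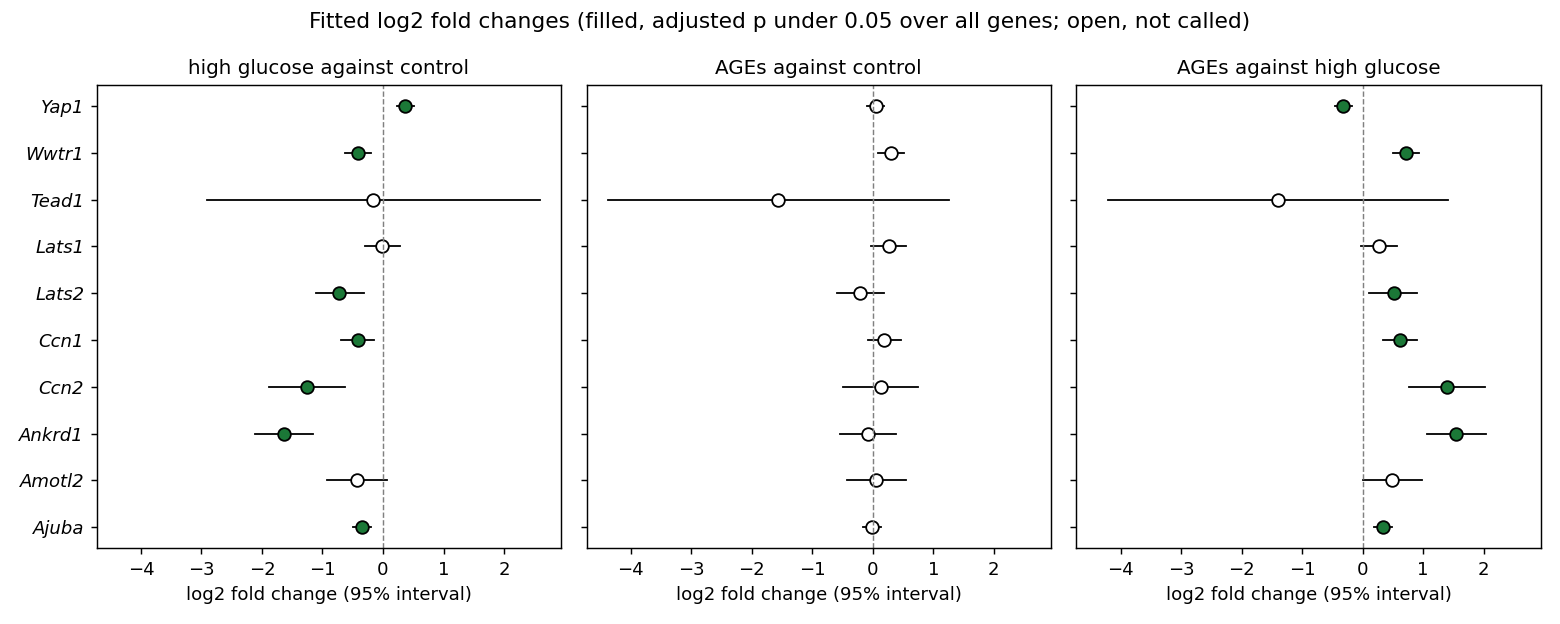
Fitted log2 fold changes of the 10 genes with 95% intervals, one panel per comparison, the first-named group minus the second. Filled points passed an adjusted p of 0.05 over all genes tested, and 7, 0 and 7 of the 10 did so in the panels from left to right; the Tead1 intervals are the widest in each.

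For AGEs, the same question was asked against control. None of the 10 members was called, and the members' median log2 fold change was 0.06. Of all genes tested, 0.0848% were called in this comparison (15 genes), 0.0509% higher and 0.0339% lower. At an unadjusted p under 0.05 edgeR gave 1 member, Wwtr1, against 2190 of all 17680 genes tested. At the adjusted threshold DESeq2 and limma also called 0 of the 10 members. Wwtr1 averaged 299 ± 14.0 CPM in AGEs and 243 ± 29.3 CPM in control (n = 3 each), a log2 difference of 0.30 with a 95% interval of 0.08 to 0.52 (edgeR adjusted p = 0.315). Lats1 averaged 73.8 ± 3.83 CPM in AGEs and 61.6 ± 7.04 CPM in control, a difference of 0.26 with an interval of -0.03 to 0.55. These 2 genes were the members whose AGEs and control libraries did not overlap, a pattern that 19.2% of all genes tested showed. The 95% intervals of Ccn1, Ccn2 and Ankrd1 all included 0. Ankrd1 differed by -0.08 (-0.55 to 0.39), Ccn2 by 0.13 (-0.49 to 0.75) and Ccn1 by 0.19 (-0.08 to 0.46). Yap1 and Ajuba had the narrowest intervals, at -0.09 to 0.19 and -0.16 to 0.14. Lats2 differed by -0.21 (-0.6 to 0.19), Amotl2 by 0.06 (-0.43 to 0.55) and Tead1 by -1.56 (-4.38 to 1.26).

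AGEs were also set against high glucose, a comparison that shares the high glucose libraries with the first and the AGEs libraries with the second. Relative to high glucose, 6 members were higher in AGEs (Wwtr1, Lats2, Ccn1, Ccn2, Ankrd1 and Ajuba), 1 was lower (Yap1) and 3 were not called (Tead1, Lats1 and Amotl2), where 39.9% of all genes were called, 19.7% higher and 20.2% lower. The members' median was 0.5, against -0.02 over all genes. Ankrd1 averaged 367 ± 84.3 CPM in AGEs and 125 ± 32 CPM in high glucose, a log2 difference of 1.55 (edgeR adjusted p = 0.000371). Ccn2 averaged 333 ± 94.7 CPM in AGEs and 127 ± 46.1 CPM in high glucose, a difference of 1.39 (0.00351). The adjusted p by edgeR stands in parentheses after each difference that follows. The coactivators again moved in opposite directions, with Wwtr1 at 0.72 (0.000323) and Yap1 at -0.32 (0.00294). Ccn1 differed by 0.61 (0.00329) and Ajuba by 0.34 (0.00324). Ajuba fell short of a call with library size alone (0.14, adjusted p = 0.115) and with both limma fits (0.0862 and 0.0955). Lats2, whose groups overlapped, differed by 0.51 (0.0453) and lost its call in 13 of 18 alternatives (adjusted p of 0.0518 to 0.256). These included leaving out AGEs library 1 or 2, high glucose library 1 or 3, or any 1 control library. Amotl2 did not overlap between AGEs and high glucose (52.5% of all genes did not), and its difference of 0.49 had an adjusted p of 0.103. In the fit of only these 2 groups that p was 0.00157, and without control library 2 it was 0.000524. Lats1 differed by 0.27 (adjusted p = 0.134) and by 0.40 (0.0304) without high glucose library 3.

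Levels between genes were compared per length, as mean FPKM. In control the order was Ankrd1 (116), Ccn1 (115), Ccn2 (91.7), Ajuba (65.2), Wwtr1 (43.9), Amotl2 (29.9), Lats2 (14.1), Yap1 (9.92), Lats1 (7.31) and Tead1 (3.58). Ankrd1 and Ccn1 overlapped over their libraries, as did Lats1 and Tead1, and the other neighbours in this order did not. In AGEs the order was nearly the same, with Ccn1 (129), Ankrd1 (109) and Ccn2 (98.9) overlapping at the top and Tead1 (1.18) last. In high glucose Ccn1 (97.1) stood alone at the top, followed by Ajuba (57.9). Ccn2 (43.6), Ankrd1 (42.3) and Wwtr1 (37.1) overlapped their neighbours there. Yap1 (14.5 in high glucose, 9.92 in control) stood above Lats2 (9.69 in high glucose, 14.1 in control) in high glucose and below it in control. Ccn1, Ccn2 and Ankrd1 were among the 4 most abundant members in every group, and Wwtr1 exceeded Yap1 in every library.

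The rest of the pathway was described from lists drawn up with earlier results of these data known. Of 26 upstream regulators and kinase cassette genes, 24 were tested, and in high glucose against control 7 were higher, 2 were lower and 15 were not called, with a median of 0.17. The 9 called of 24 stand beside 39.3% called among all genes. Among the 7, Sav1 lost its call without high glucose library 1 (adjusted p = 0.0705) or control library 1 (0.064), and Ptpn14 without control library 1 (0.053). Taok2, a kinase above the cascade, was at 66.8 ± 3.17 CPM in high glucose and 40.4 ± 1.88 CPM in control (log2 difference 0.73). Fat1, an atypical cadherin, was at 144 ± 31.8 CPM in high glucose and 72.8 ± 5.85 CPM in control (0.98). The adaptor Wwc1 (KIBRA, 0.47) and the kinase Map4k4 (0.72) were also higher. The 2 that were lower belong to the core cassette, as does Sav1, which was higher (0.24, edgeR adjusted p = 0.0167). Stk4, which encodes the kinase MST1, was at 166 CPM in high glucose and 224.5 CPM in control (-0.43, adjusted p = 0.000979), and Mob1a, a LATS cofactor, was at 145.5 and 209 CPM (-0.52, adjusted p = 0.0021). In AGEs against control 0 of the 24 were called by edgeR and by limma. At an unadjusted p under 0.05 edgeR gave 6 of the 24, against 2190 of all 17680 genes tested. DESeq2, given all 26 listed genes, called 2, Frmd6 (0.38, DESeq2 adjusted p = 0.00521) and Wtip (-0.44, 0.0295). It was given all 55385 genes of the table, without the filter on low counts, and called 160 higher and 105 lower. In AGEs against high glucose 4 were higher and 5 lower, 9 of 24 where 39.9% of all genes were called. Those higher were Stk4 (0.49), Mob1a (0.68), its paralogue Mob1b (0.51) and Frmd6 (0.50), and those lower were Taok2 (-0.76), Wwc1 (-0.43), Fat1 (-0.76), Nf2 (merlin, -0.41) and the phosphatase gene Ptpn14 (-0.40). Mob1b lost its call in 5 of 18 alternatives: without AGEs library 1 (0.0605) or high glucose library 2 (0.0609), with library size alone (0.117) and with both limma fits (0.15 and 0.144). Nf2 lost it without AGEs library 1 (0.0607), AGEs library 2 (0.0601), high glucose library 1 (0.0571) or high glucose library 2 (0.0506).

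The other YAP/TAZ targets did not share one direction. Of 17 listed and 15 tested, 5 were higher and 4 lower in high glucose, with a median of 0.35. The 9 called of 15 stand beside 39.3% of all genes. Among the members, the targets Ccn1, Ccn2, Ankrd1 and Lats2 were lower. Gadd45a, a stress-inducible growth arrest gene, had 156, 161 and 173.5 CPM in AGEs, 38.9, 37.1 and 46.0 CPM in high glucose and 197, 154.5 and 149.9 CPM in control. Its log2 difference between high glucose and control was -2.04, larger in size than that of any member. F3, which encodes tissue factor, had 164, 191 and 203 CPM in AGEs, 72.5, 65.0 and 68.2 CPM in high glucose and 161, 156 and 147 CPM in control, with a difference of -1.17. The Rac activator Dock5 (-0.57) and Crim1 (-0.51) were lower as well, though Crim1 lost its call with library size alone and both limma fits (adjusted p of 0.0517 to 0.0565). Those higher included Nt5e, the ectonucleotidase CD73 (36 ± 2.20 CPM in high glucose, 16.9 ± 1.65 CPM in control, 1.09), Ccdc80, a matrix protein (1.37), Asap1 (0.82) and Ptpn14 (0.39), which is also counted among the upstream regulators. Nuak2 (0.38), the fifth, lost its call in 5 of 18 alternatives, without high glucose library 2 (0.11) or 3 (0.123) or any 1 control library (0.0692 to 0.107). In AGEs against control 0 of 15 were called by edgeR and by limma. At an unadjusted p under 0.05 edgeR gave 6 of the 15, against 2190 of all 17680 genes tested. DESeq2, given all 17 listed genes, called 1, Dock5 (0.46, DESeq2 adjusted p = 0.0335). Of all 55385 genes given to it, DESeq2 called 160 higher and 105 lower. In AGEs against high glucose 4 of the 15 were higher, Gadd45a (2.01), F3 (1.44), Dock5 (1.02) and Crim1 (0.58). A further 6 were lower, Nt5e (-0.72), Ccdc80 (-0.92), Nuak2 (-0.52), Arhgef17 (-0.53), Asap1 (-0.44) and Ptpn14 (-0.40). In this comparison 39.9% of all genes were called. Arhgef17 lost its call in 8 of 18 alternatives (adjusted p of 0.0549 to 0.146): in the fit of only these 2 groups and without AGEs library 1 or 2, any 1 high glucose library, or control library 2 or 3. Ccdc80 lost it in 5 (0.0652 to 0.102): in the fit of only these 2 groups and without AGEs library 1 or 2 or high glucose library 2 or 3.

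MRTF and SRF form the other actin-responsive transcription system, which shares targets with YAP and TAZ. All 14 of its listed genes were tested, and 2 were higher and 2 lower in high glucose against control, with a median of 0.01. The 4 called of 14 stand beside 39.3% of all genes. Tpm1, a tropomyosin, was at 394 ± 21.5 CPM in high glucose and 213.5 ± 11 CPM in control (0.88), and Cnn1 (calponin) differed by 1.0 at low levels of 4.37 and 2.18 CPM. Tagln (transgelin) was at 15.7 ± 3.17 CPM in high glucose and 30.2 ± 8.17 CPM in control (-0.95), and the focal adhesion gene Zyx differed by -0.38. The call for Zyx was lost in 9 of 18 alternatives (adjusted p of 0.0518 to 0.189): with library size alone, the replicate block (0.0713) and both limma fits, and without high glucose library 2 or 3 or any 1 control library. The factors themselves, Srf (0.03), Mrtfa (0.16) and Mrtfb (-0.10), were not called. In AGEs against control 0 of 14 were called by edgeR, limma or DESeq2. At an unadjusted p under 0.05 edgeR gave 1 of the 14, against 2190 of all 17680 genes tested. In AGEs against high glucose 1 of the 14 was higher, Vcl (vinculin, 0.63), and 2 were lower, Tpm1 (-0.61) and Cnn1 (-0.62). In that comparison 39.9% of all genes were called. Vcl lost its call in 8 of 18 alternatives (adjusted p of 0.0581 to 0.166): with library size alone, both limma fits, and without any 1 AGEs library or high glucose library 1 or 2. Cnn1 lost it in 7 (0.0533 to 0.127): with no filter, the replicate block (0.0546) and the fit of only these 2 groups, and without AGEs library 2 or 3 or high glucose library 2 or 3.

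**Figure D4:**
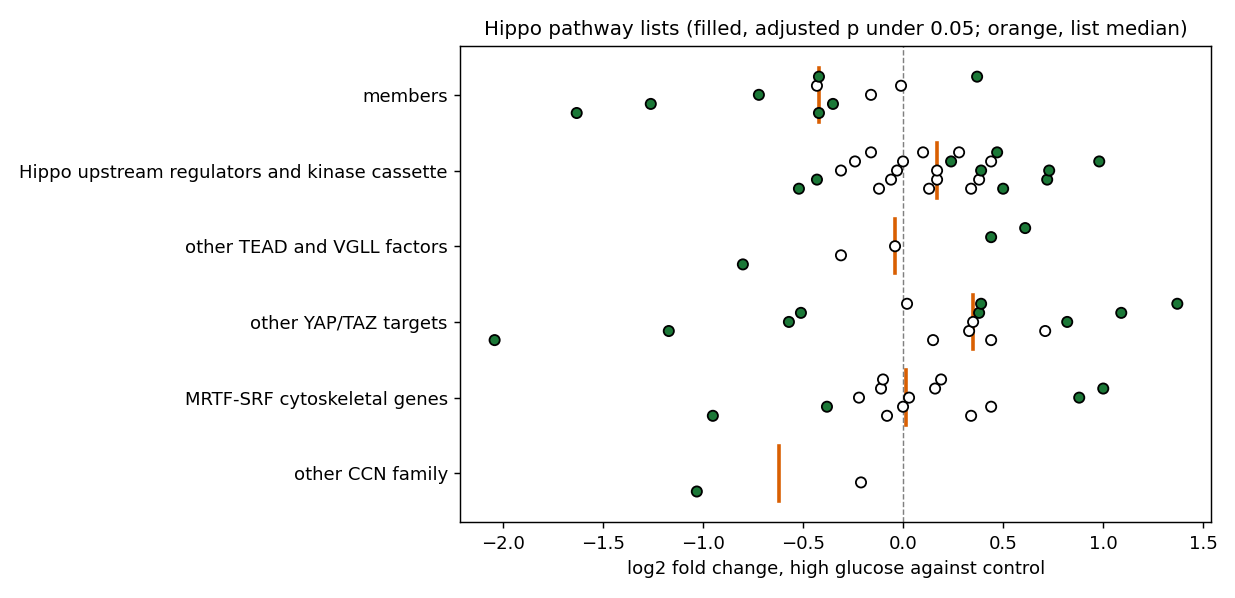
Log2 fold changes of high glucose against control for every tested gene of each list, one point per gene, filled where the adjusted p was under 0.05, with an orange line at the list median. The members' median lies at -0.42 and that of the other YAP/TAZ targets at 0.35, and each list of more than 2 tested genes has filled points on both sides of 0.

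The genes most like the members over the 9 libraries were listed by Pearson's r of log2 CPM among 11927 genes, as a description of libraries of which 3 stood apart. Closest to Yap1 were Ckap2l (0.998), Npepps (0.991) and Inpp5f (0.991). Closest to Ankrd1 were Sgf29 (0.994), Cdc16 (0.991) and 4930438A08Rik (0.989). Eif5, a translation initiation factor gene, was the closest gene to both Ccn1 (0.971) and Ccn2 (0.984). Abcc4 (0.971) and Vim (0.969) came next for Ccn1, and Ric8a (0.98) and Map6 (0.975) for Ccn2.

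How far each member's high glucose difference moved with the processing is drawn below for 18 alternatives. Yap1, Lats2, Ccn2 and Ankrd1 kept their direction and their call in 18 of 18. Their log2 differences ranged over 0.33 to 0.55 for Yap1, -0.87 to -0.51 for Lats2, -1.43 to -0.98 for Ccn2 and -1.78 to -1.44 for Ankrd1. Wwtr1, Ccn1 and Ajuba stayed below 0 throughout but lost their call in some.

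**Figure D5:**
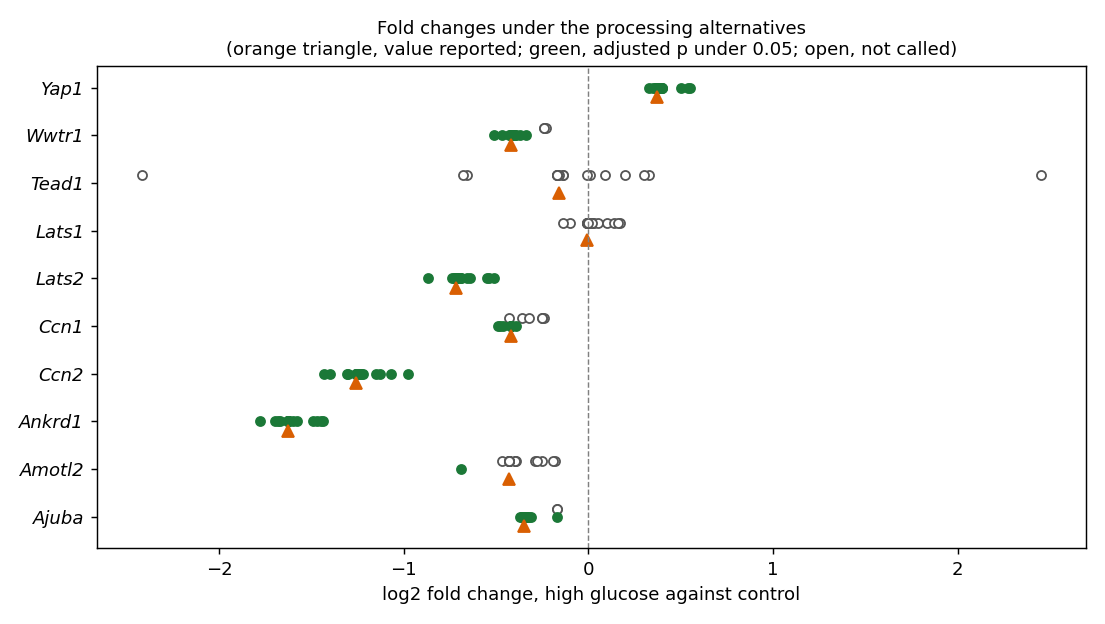
Log2 fold change of high glucose against control for each member under 18 processing alternatives (green, adjusted p under 0.05; open, not called), with the reported value as an orange triangle. Tead1 spans -2.42 to 2.45 across 0, whereas Ankrd1 lies between -1.78 and -1.44.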

How the data were processed

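Total RNA of 9 podocyte libraries was sequenced. Per the file headers, the table that the authors deposited holds a read count and an FPKM value per gene and library. In the deposited FPKM columns a count of 0 is written as 1e-04. The submitters' processing notes name cutadapt 1.9, FastQC and GRCm38. The aligner, counter, annotation and strandedness were not given in the sources used here, so reads of overlapping antisense genes cannot be separated. Groups came from the treatment labels.

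The counts were fitted in R 4.3.3 with edgeR 4.0.16 (glmQLFit and glmQLFTest, filterByExpr, TMM; 17680 genes; 9 libraries in 1 fit with 3 group means; common biological coefficient of variation 0.278). Tests were two-sided and Benjamini-Hochberg adjusted over all genes tested, with calls made at an adjusted p under 0.05. The procedure was tested on simulated data. CPM uses TMM factors; intervals are 95%. Shares and ratios were tested by exact permutation. Each library was kept as a replicate of its own. Replicates differed beyond sampling noise (chi-square per degree of freedom 47.7 to 110). Separate library preparations of 1 culture could do so too, so this does not show that the cultures were separate. The alternatives were DESeq2 1.42.0, limma 3.58.1 on log2(FPKM + 1) and log2(FPKM + 0.1), other scalings and filters, a replicate block, 2-group fits and leaving out each library.

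The members and lists were chosen with earlier results of these data known. All 10 members are named, and from each list up to 4 genes per direction with the smallest p among those called in high glucose against control, and every gene called in a comparison with AGEs; TEAD, VGLL and CCN genes may always be named. Named besides these, after their values were seen, were Sav1, Srf, Mrtfa, Mrtfb, Wtip, Limd1, Gm5148 and Gm50461. The overlapping genes Gm20430 and Gm15270 are also named outside this rule. A planned search of protein sequences was not run. 1 gene of the podocyte marker list is not reported here by name.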

Additional observations from a re-analysis of the deposited data

How the results depend on the processing

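In high glucose against control, genes called higher numbered 5237 with limma on log2(FPKM + 1), against 3466 as reported, and genes called lower numbered 2287 with library size alone, against 3480. Members called lower there numbered 3, not 6, with library size alone and with limma on log2(FPKM + 0.1). In AGEs against control the 9 genes called higher became 3 with a replicate block, 160 with DESeq2 and 6 to 14 without single libraries, and the 6 called lower became 2, 105 and 4 to 12. In AGEs against high glucose genes called higher numbered 2251 with library size alone and 2314 with limma on log2(FPKM + 1), against 3481, and genes called lower numbered 5509 and 5433 with limma on log2(FPKM + 1) and log2(FPKM + 0.1), against 3572. The cause was not tested. Uncalled differences changed sign. High glucose minus control for Tead1 was 0.01 with library size alone, 0.09 and 0.20 with limma, and -2.42 to 2.45 without single libraries. For Lats1 it was 0.17 with library size alone, 0.02 with a filter at a mean CPM of 1, 0.14 and 0.16 with limma, and -0.14 to 0.10 without single libraries. AGEs minus control for Tead1 was 0.28 with the replicate block and -2.07 to 1.05 without single libraries, where Ccn2 spanned -0.11 to 0.30, Ankrd1 -0.21 to 0.10, Amotl2 -0.20 to 0.22 and Ajuba -0.06 to 0.03. AGEs minus high glucose for Tead1 was 0.29 with the block and -1.90 to 0.85 without single libraries. Same-numbered libraries did not deviate together (correlations of -0.0673 to 0.0844), so no pairing by number was seen over all genes. Whether same-numbered libraries were prepared together cannot be told from these correlations. With the replicate block 1 member was higher and 6 lower in high glucose against control, as without it, and 5 were higher in AGEs against high glucose. DESeq2 gave no adjusted p for Tead1. The members had at least 491 counts in every library, and the precision also rests on only 3 libraries a group.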

Other observations

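High glucose library 2 and control library 2 stood apart for Tead1, and 2 other genes with a 10-fold spread in both groups also had library 2 highest in both, by CPM. Gm5148 had 658, 1505 and 869 counts in AGEs, 684, 478 and 4 in high glucose and 1002, 1086 and 6 in control. Its spread came from the low library 3 of high glucose and of control, and library 2 did not stand apart as for Tead1. Gm50461 had 233, 0 and 185 counts in AGEs, 0, 298 and 0 in high glucose and 0, 317 and 0 in control. Among the regulators, Limd1, a relative of Ajuba, spread 2.27-fold in AGEs, 2.53-fold in high glucose and 2.04-fold in control, wider than Ajuba did in any group.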
